A study of Ovis aries with 36 samples.

Results

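Rectus femoris (RF), a muscle of the quadriceps that extends the knee, was compared with supraspinatus (SS), a muscle of the shoulder, in the same 4 lambs. The 8 libraries, RF and SS of animals 1 to 4, were taken by their titles from 36 libraries of 9 muscles, and RF was set against SS within each animal. The pair joins a hindlimb and a forelimb muscle that were chosen because *HOXD8* is low in each. The animals were unrelated Poll Dorset cross-bred lambs of 14 months and 67 to 72 kg live weight, from different flocks, which had grazed soy and received sorghum. Every lamb gave each muscle, so that RF and SS shared genotype, diet, age and slaughter. Tissue came from the mid superficial belly immediately after slaughter. One region of each muscle was therefore measured, and no treatment was applied.

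Skeletal muscle is built of slow fibres, which contract slowly and resist fatigue, and of fast fibres. Each type uses its own isoforms of the troponins, tropomyosins and myosin chains, and of the proteins that store and return calcium. *HOX* genes are transcription factors that are laid down along the body axis in the embryo, and their adult expression keeps a record of position.

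Between RF and SS, 22 of 12461 tested loci passed a false discovery rate (FDR, Benjamini-Hochberg) of 0.01 with more than a 2-fold difference in edgeR's quasi-likelihood test, which is 0.177% of the loci. Of these, 17 were higher in SS (0.136%) and 5 were higher in RF (0.0401%). The named genes higher in SS were *MYOZ2*, *METTL21C*, *CASQ2*, *TPM3* and *TNNC1*, and those higher in RF were *HOXC10* and *CHI3L1*. All 22 differed in the same direction in 4 of 4 animals, which was the case for 20.4% of all loci. The RF and SS values did not overlap in 21 of the 22, against 4.68% of all loci: RF was wholly above SS in 4 of the 5 (2.18% of all loci) and SS wholly above RF in the 17 (2.50% of all loci). Without animal 2 the count was 14 and without animal 3 it was 7, whereas a fit that ignored which animal a sample came from called 11. The 7 loci that were called with any animal left out were *MYOZ2*, *METTL21C*, *HOXC10*, a locus at the *MYL6* position, a locus at the *MYL2* and *CCDC63* position, and unnamed loci on chromosomes 9 and 10. All 7 were also called without the animal term.

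**Figure D1:**
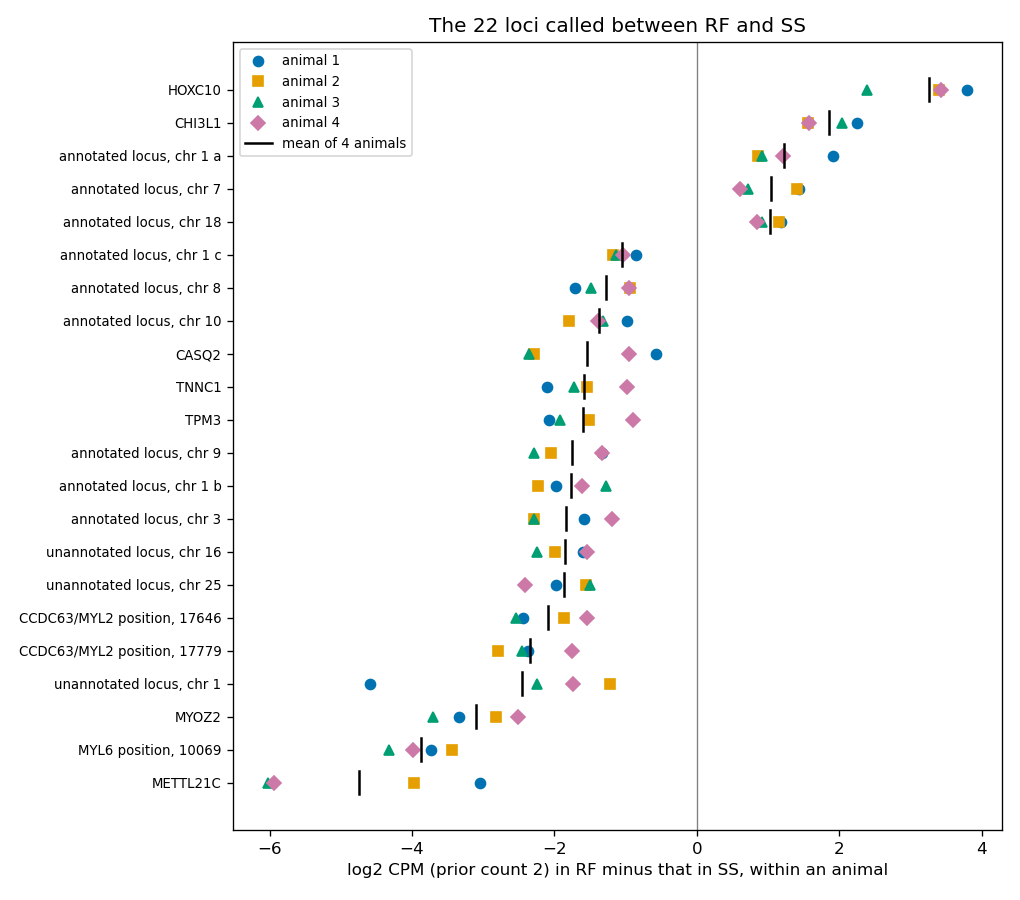
Differences in log2 CPM (read counts scaled to library size, prior count of 2) between RF and SS of the same animal, for the 22 called loci. Each symbol is 1 animal and the vertical bar is the mean of 4 animals, with 17 loci on the left of 0 (higher in SS) and 5 on the right. The prior count shortens the distance for *HOXC10*, which had no read in SS, and the letters a to c tell apart 3 annotated loci on chromosome 1 in order of position.

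In these libraries the counts summed to between 5256304 and 6304546 in RF and between 4316863 and 6151666 in SS. In each, 4 unannotated loci took 67.2 to 73.5% of all counts, which left 1416373 to 2034119 counts for all other loci. Levels are given as CPM, the reads of a locus per 1e6 reads of the scaled library, after trimmed-mean (TMM) scaling, without correction for gene length, so that levels of different genes are not compared. A count of 3, used as the detection floor, corresponded to 0.437 to 0.689 CPM in a single library. Gene symbols were paired with loci through Oar_v3.1 coordinates, which gave 31 symbols with exactly 1 tested locus. Markers of other cell types and fast-fibre genes carried no such pairing and were not analysed here, so that the tissue itself was checked only through the contractile genes described next. As whole tissue was used, a smaller share of slow fibres and less slow-fibre RNA per fibre cannot be told apart.

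Among the slow-fibre sarcomere genes, *MYOZ2*, *TNNC1* and *TPM3* were lower in RF than in SS, and no difference was detected in *MYL3*. Of 16 genes in the list, 7 were paired with a tested locus; 3 were called, all higher in SS (0.136% of all loci), 6 had an FDR of 0.05 or less (0.762% of all loci), and the median log2 fold change (log2FC) of RF minus SS was -1.51, against 0.000923 over all loci. All 7 symbols came from comparisons that included the same SS samples, so that their direction is not independent evidence.

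*MYOZ2* encodes myozenin 2, a Z-disc protein that binds calcineurin in slow fibres (chr6:6264895-6303407). Its level in RF was 4.94, 5.70, 5.35 and 7.83 CPM in animals 1 to 4, and in SS 53.5, 42.5, 74.1 and 46.2 CPM. The lowest SS sample was therefore far above the highest RF sample. The log2FC was -3.13 ± 0.27 (SE of the 4 within-animal differences), with an FDR of 8.2e-10 in edgeR's quasi-likelihood test. RF also lay below the mean of the other 7 muscles for *MYOZ2* (log2FC -1.41, FDR 0.00040), while SS lay above it (1.71, FDR 2.9e-09).

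Troponin C1 (*TNNC1*, chr19:48403558-48406316) is the calcium sensor of slow fibres. Levels in RF were 48.9, 80.2, 109 and 145 CPM, and in SS 211, 233, 363 and 285 CPM. The groups did not overlap, with animal 1 the lowest and animals 3 and 4 the highest in both. The log2FC of *TNNC1* was -1.52 ± 0.24 with an FDR of 0.0073 in edgeR's quasi-likelihood test. This call was lost when animal 1 (FDR 0.056), animal 2 (FDR 0.021) or animal 3 (FDR 0.18) was left out and when the animal term was dropped (FDR 0.068). The fold change of *TNNC1* itself stayed between -1.78 and -1.36 with any animal left out.

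The tropomyosin of slow fibres, *TPM3* (chr1:103039221-103067829), was also called. RF had 24.7, 34.8, 50.0 and 89.6 CPM and SS had 105, 100, 190 and 166 CPM, without overlap. Its log2FC was -1.51 ± 0.26 and its FDR 0.00051 in edgeR's quasi-likelihood test. The FDR of *TPM3* was 0.018 without animal 1, 0.064 without animal 3 and 0.055 without the animal term. A second, unannotated locus in the same coordinates had 5.74, 15.1, 10.2 and 26.4 CPM in RF and 18.4, 24.8, 31.5 and 25.9 CPM in SS, with overlap and with RF higher in 1 of 4 animals (log2FC -0.87, FDR 0.22). Animal 4 had the highest RF level of *MYOZ2*, *TNNC1* and *TPM3*.

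Further slow-fibre sarcomere genes did not meet the call rule. Troponin T1 (*TNNT1*) had 57.0, 73.5, 78.0 and 135 CPM in RF and 173, 184, 262 and 282 CPM in SS, with a log2FC of -1.39 ± 0.15 and an FDR of 0.014 in edgeR's quasi-likelihood test. Troponin I1 (*TNNI1*) had 8.90, 15.3, 31.9 and 37.5 CPM in RF and 43.4, 44.6, 75.3 and 77.0 CPM in SS, with a log2FC of -1.41 ± 0.27 and an FDR of 0.032. Myomesin 3 (*MYOM3*), a protein of the M-band, had 18.2, 8.18, 14.2 and 15.3 CPM in RF and 34.7, 30.7, 64.9 and 39.1 CPM in SS, with a log2FC of -1.60 ± 0.28 and an FDR of 0.0105. In each of these 3 genes the 4 SS samples lay above the 4 RF samples, and *MYOM3* was just outside the threshold. *TNNT1* met the rule without animal 4 (FDR 0.0023) and *MYOM3* without animal 1 (FDR 0.0090).

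*MYL3*, the essential light chain of slow and ventricular myosin, gave values that the test could not separate. It had 34.8, 26.6, 47.9 and 74.5 CPM in RF and 38.1, 27.7, 72.5 and 91.7 CPM in SS, so that the 2 groups overlapped throughout. The log2FC was -0.30 ± 0.12, with an FDR of 0.83 in edgeR's quasi-likelihood test. Within animals the log2 difference of *MYL3* ranged from -0.59 to -0.06, whereas that of *MYOZ2* in the same animals ranged from -3.71 to -2.51. The difference between these 2 genes was not tested.

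**Figure D2:**
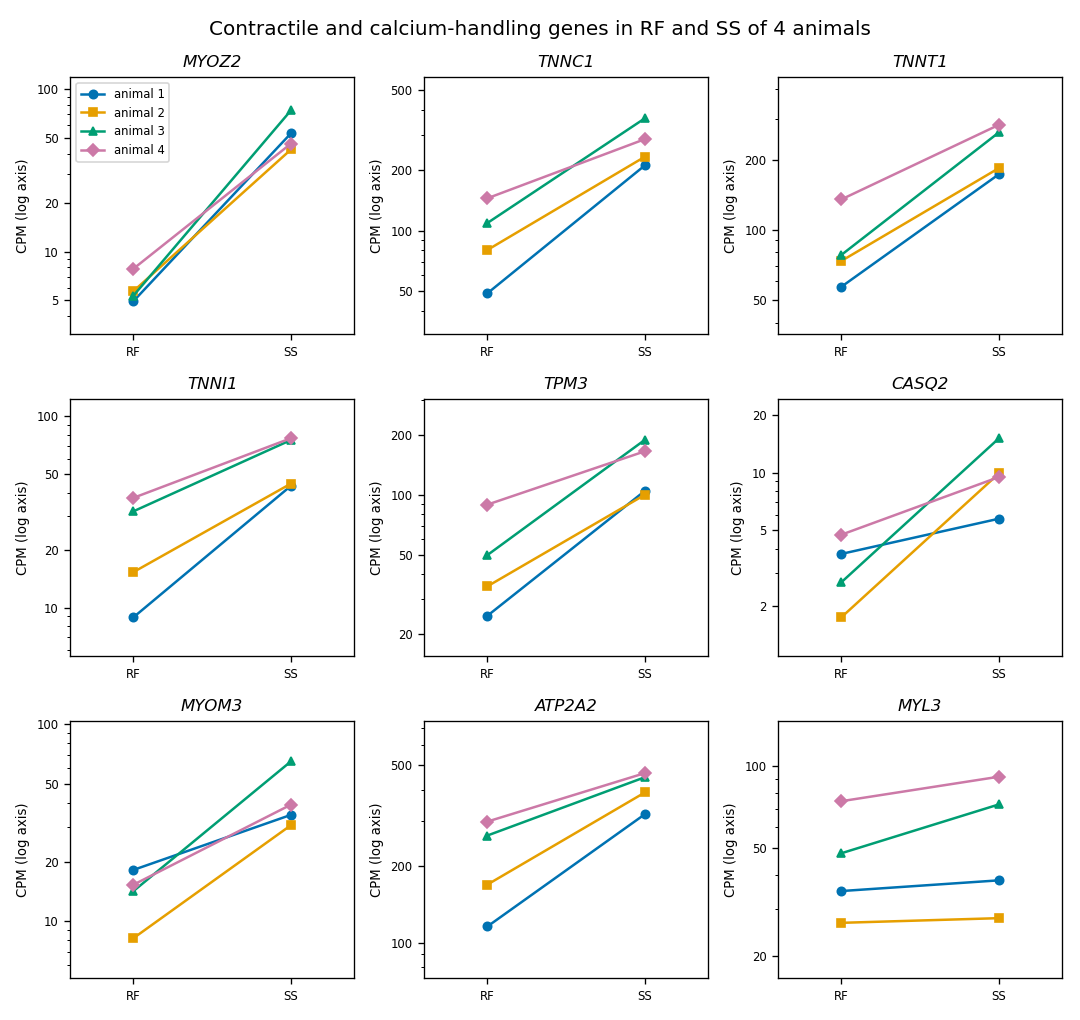
Levels (CPM, log axis) of 9 contractile and calcium-handling genes in RF and SS, with 1 line for each of the 4 animals. Lines go up from RF to SS in every animal and gene, steeply for *MYOZ2* and hardly at all for *MYL3*, and animals 3 and 4 lie above animals 1 and 2 in each muscle for *TNNC1*, *TNNT1*, *TNNI1*, *ATP2A2* and *MYL3*.

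Myosin light chains and a myosin heavy chain lie at 3 positions where the coordinates held more than 1 locus, so that coordinates alone did not assign the symbol. At the *MYL6* position (chr3:163076924-163101778), the locus ENSOARG00000010069 had 4.35, 4.97, 4.68 and 4.01 CPM in RF and 62.2, 57.2, 100 and 68.7 CPM in SS. It had the smallest p-value of the comparison, with a log2FC of -4.00 ± 0.19 and an FDR of 5.2e-10 in edgeR's quasi-likelihood test. The second locus at the same coordinates, ENSOARG00000009931, had 30.3 ± 5.52 CPM in RF and 26.9 ± 2.94 CPM in SS (SD, n = 4), with a log2FC of 0.17 and an FDR of 0.75. Of these neighbours, the former varied little between the 4 RF samples and was 3.19 log2 units higher in SS than in the other 7 muscles (FDR 3.1e-15). The study listed *MYL6* as higher in SS than in semitendinosus. Semitendinosus had 4.95 CPM at ENSOARG00000010069, below SS, and 35.3 CPM at ENSOARG00000009931, above SS, so that only the former goes the way of that entry.

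Another such position is that of *MYL2*, the regulatory light chain of slow myosin, and *CCDC63* (chr17:54257918-54303146). Both loci there were called. ENSOARG00000017779 had 7.91, 6.14, 10.5 and 15.1 CPM in RF and 42.2, 44.7, 59.5 and 52.0 CPM in SS, with a log2FC of -2.34 ± 0.22 and an FDR of 1.5e-06 in edgeR's quasi-likelihood test. ENSOARG00000017646 had 24.5, 35.4, 35.1 and 48.3 CPM in RF and 135, 129, 206 and 141 CPM in SS, with a log2FC of -2.08 ± 0.24 and an FDR of 0.00056. The second call was lost without animal 1 (FDR 0.015) or animal 3 (FDR 0.054), and the first was kept with any animal left out.

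Of the 2 tested loci at the position of *MYH7B*, a slow-type myosin heavy chain (chr13:63837469-63938828), ENSOARG00000011188 had 9.10, 27.0, 16.9 and 25.9 CPM in RF and 58.1, 80.2, 80.7 and 77.9 CPM in SS. Its log2FC of -1.91 ± 0.26 had an FDR of 0.0105 in edgeR's quasi-likelihood test, just outside the threshold. ENSOARG00000011695 had 14.5 ± 1.82 CPM in RF and 12.6 ± 3.04 CPM in SS (SD, n = 4), and no difference was detected (log2FC 0.21, FDR 0.75). The study listed *MYH7B* as higher in SS than in semitendinosus, where ENSOARG00000011188 had 3.63 CPM and ENSOARG00000011695 had 12.7 CPM. Only the former goes the way of that entry. The position of *FABP3*, the fatty acid carrier of heart and slow muscle, held ENSOARG00000001603 with 9.96 ± 4.18 CPM in RF and 24.9 ± 5.76 CPM in SS (log2FC -1.38, FDR 0.0105). Without animal 1 that locus met the rule (FDR 0.0018).

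Calcium-handling genes were represented by 4 of 25 list members, of which 1 was called (0.177% of all loci); the median log2FC was -0.70. *CASQ2*, the calcium-storing calsequestrin of slow and cardiac muscle (chr1:92170833-92243108), had 3.76, 1.75, 2.67 and 4.74 CPM in RF and 5.74, 9.90, 15.1 and 9.48 CPM in SS. Although the groups did not overlap, the within-animal differences were uneven, and animal 1 contributed the smallest. *CASQ2* had a log2FC of -1.70 ± 0.46 and an FDR of 0.00043 in edgeR's quasi-likelihood test, which became 0.026 without animal 2 and 0.054 without animal 3.

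The slow-type calcium pump gene *ATP2A2* (chr17:53803321-53860163) had 116, 169, 264 and 300 CPM in RF and 321, 390, 448 and 465 CPM in SS. Every SS sample was above every RF sample, but the log2FC of -0.96 ± 0.19 had an FDR of 0.051 in edgeR's quasi-likelihood test. *KCNMA1*, a calcium-activated potassium channel, had 16.2 ± 1.46 CPM in RF and 21.9 ± 0.61 CPM in SS (SD, n = 4), again without overlap, and an FDR of 0.17 (log2FC -0.43). The calcium buffer parvalbumin (*PVALB*), known from fast fibres, had 14.6, 8.18, 3.17 and 3.28 CPM in RF and 17.5, 2.18, 1.24 and 1.74 CPM in SS, with a log2FC of 0.66 ± 0.42 and an FDR of 0.56. Animal 1 was the highest for *PVALB* in both muscles.

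*METTL21C*, which encodes a protein-lysine methyltransferase of skeletal muscle, had the largest fold change of the called loci with reads in each muscle (chr10:78272110-78285629). RF had 1.58, 2.34, 1.00 and 1.09 CPM, close to the detection floor, and SS had 15.6, 41.9, 87.8 and 88.6 CPM. The SS animals thus differed widely among themselves, with animals 3 and 4 high and animal 1 low, and all lay above RF. The log2FC of *METTL21C* was -5.52 ± 0.74 with an FDR of 2.9e-07 in edgeR's quasi-likelihood test, and it stayed between -6.13 and -5.07 with any animal left out. In the other 7 muscles its means lay between 2.02 CPM in psoas major and 7.06 CPM in longissimus lumborum, and SS was 4.37 log2 units above their mean (FDR 2.8e-12) and RF was not separated from it (log2FC -1.15, FDR 0.46). In animal 1, however, longissimus lumborum (18.8 CPM) and adductor (17.9 CPM) were above SS (15.6 CPM) for *METTL21C*.

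Of 23 myogenic and growth regulators 2 were paired, *METTL21C* and *SMYD2*, another methyltransferase of lysine. *SMYD2* had 17.6, 15.8, 15.04 and 16.9 CPM in RF and 11.9, 13.7, 9.77 and 12.96 CPM in SS. RF was above SS in 4 of 4 animals, but the log2FC of 0.43 ± 0.09 did not pass (FDR 0.30 in edgeR's quasi-likelihood test). *PPP1R3D*, a subunit that directs protein phosphatase 1 to glycogen, was the only glycolysis and glycogen gene paired, with 3.88 ± 1.06 CPM in RF and 2.36 ± 0.66 CPM in SS (SD, n = 4; log2FC 0.76, FDR 0.22).

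Position-related genes were represented by 2 of 39 *HOX* genes, 1 of them the *HOXD8* used to choose the pair. A second list, drawn up for other regulators of limb and muscle position, had 3 of 37 members paired: *SIM2*, *EYA1* and *CHI3L1*. In each list 1 member was called (0.177% of all loci), *HOXC10* in the first and *CHI3L1* in the second. As *CHI3L1* encodes a secreted glycoprotein, neither paired regulator of the second list, *SIM2* or *EYA1*, was called. *HOXC10*, a gene of the posterior *HOXC* cluster that is used in the hindlimb and lumbar region of the embryo (chr3:132378062-132383225), was called as higher in RF. RF had 4.55, 3.36, 1.504 and 3.46 CPM, from 23, 23, 9 and 19 reads, and SS had 0 reads in all 4 animals. Against a floor of 3 counts over the SS group, equal to 0.136 CPM, *HOXC10* was at least 23.2-fold higher in RF, with an FDR of 5.6e-08 in edgeR's quasi-likelihood test. The RF mean of 3.22 CPM stood within the means of the other 7 muscles, which ran from 2.10 CPM in gluteus medius to 3.51 CPM in semitendinosus. RF was therefore not separated from those muscles for *HOXC10* (FDR 0.77), and SS was the muscle that stood apart. As SS was the only forelimb muscle sampled, muscle and limb cannot be told apart here.

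Around *HOXC10*, most loci held few reads. The exception, an unannotated locus at chr3:132331472-132331791, had 19, 2, 40 and 23 reads in RF and 14, 15, 50 and 39 in SS, and no difference was detected (log2FC -0.54, FDR 0.85 in edgeR's quasi-likelihood test). An unannotated locus just beyond its end (chr3:132383480-132385129) had 7, 3, 5 and 4 reads in RF and 0 in each SS library. The annotated locus at chr3:132392956-132395153 had 7 reads over the RF samples and 0 over the SS samples. At chr3:132314501-132315663 the order was the opposite, with 0 reads in RF and 5 in SS. These last 3 loci did not pass the filter on low counts, and their differences were not tested.

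*HOXD8* (chr2:132873609-132877353) served to choose the pair and is given as a description. RF had 0.79, 1.17, 3.01 and 0.73 CPM and SS had 0.23, 0.29, 0.36 and 1.55 CPM, values that straddle the detection floor and overlap. In the other 7 muscles the *HOXD8* means lay between 7.42 CPM in gluteobiceps and 14.1 CPM in longissimus lumborum, and their lowest single sample had 3.52 CPM.

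**Figure D3:**
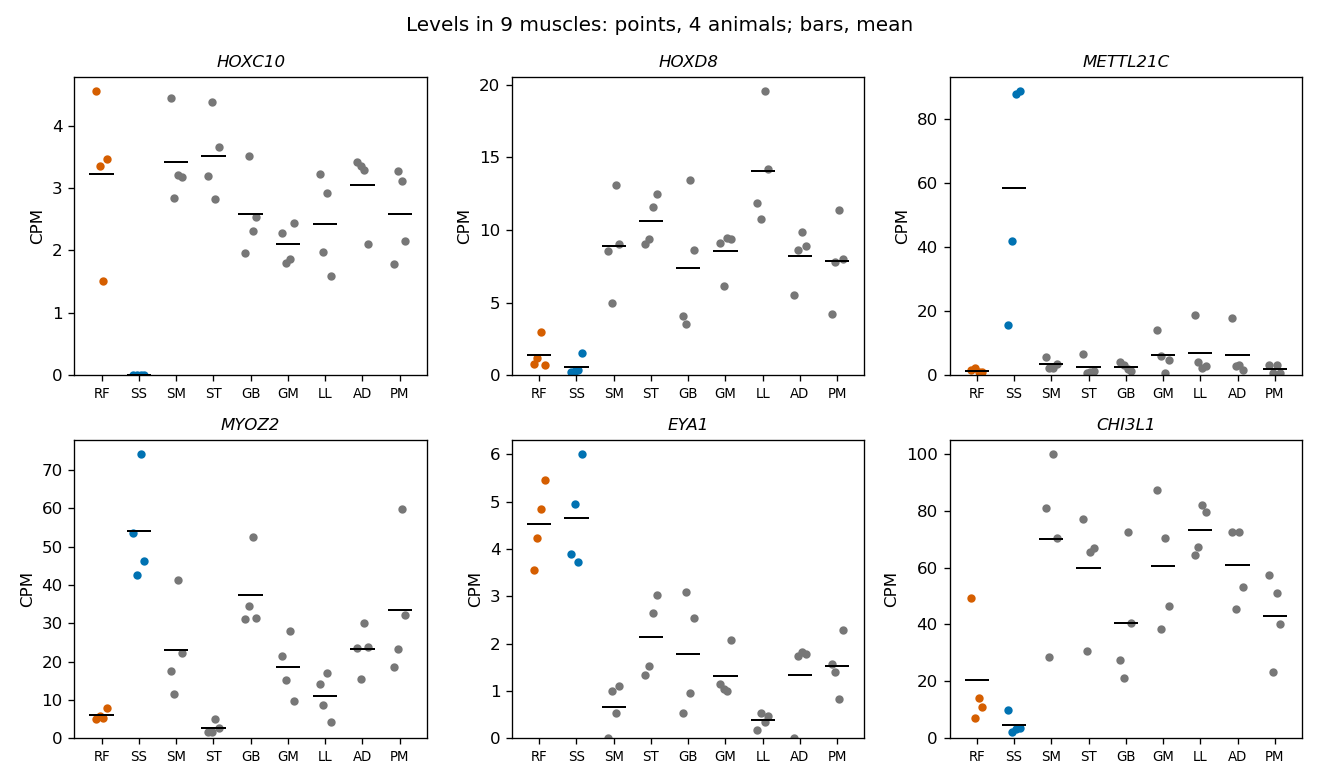
Levels (CPM) of 6 genes in 9 muscles: points are the 4 animals, bars the means, with RF in orange, SS in blue and the other muscles in grey (SM is semimembranosus, ST is semitendinosus, GB is gluteobiceps, GM is gluteus medius, LL is longissimus lumborum, AD is adductor and PM is psoas major). *HOXC10* is at 0 in SS alone, *HOXD8* is low in RF and SS, *METTL21C* has its highest mean in SS, *MYOZ2* is low in RF and ST, *EYA1* is high in RF and SS, and *CHI3L1* is lowest in SS and next lowest in RF.

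*EYA1*, a transcriptional coactivator and phosphatase with a role in muscle formation, was at nearly one level in the pair. RF had 3.56, 4.24, 4.85 and 5.46 CPM and SS had 3.90, 4.95, 3.73 and 5.996 CPM. No difference was detected (log2FC -0.02 ± 0.13, FDR 0.99 in edgeR's quasi-likelihood test), and the within-animal differences of *EYA1* ranged from -0.21 to 0.35. Each muscle was above the mean of the other 7, RF by 1.95 log2 units (FDR 1.3e-06) and SS by 1.97 (FDR 6.6e-07). These 2 comparisons share the 7 muscles. *PVALB* was also above the mean of the 7, by 4.63 log2 units in RF (FDR 2.9e-10) and 3.97 in SS (FDR 3.4e-08). Semitendinosus had 5.70 ± 2.59 CPM as well (SD, n = 4). Adductor had 0 reads, and semimembranosus, longissimus lumborum and psoas major had means of 0.13 to 0.15 CPM, under the floor. The sizes of these 2 differences are therefore uncertain. In SS, animal 1 had 17.5 CPM and the others 1.24 to 2.18 CPM. The study listed *EYA1* and *PVALB* for differences between semimembranosus and SS, so that neither is independent evidence. *SIM2*, a bHLH-PAS transcription factor, had 0.72 ± 0.47 CPM in RF and 0.65 ± 0.31 CPM in SS, near the floor, with an FDR of 0.99.

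An unannotated locus at chr20:49762606-49765006 had 3.12 CPM in RF and 3.21 CPM in SS (log2FC -0.03, FDR 0.99), with semitendinosus higher at 7.35 CPM and the remaining muscles between 0.125 and 1.18 CPM. RF was 1.90 log2 units above the mean of the 7 muscles for this locus (FDR 0.00046) and SS 1.93 (FDR 0.00011). Another unannotated locus, at chr3:138839190-138842956, was low in each, with 0.188 CPM in RF and 0.137 CPM in SS. The log2FC from the 7 muscles was -3.83 in RF (FDR 1.7e-05) and -4.40 in SS (FDR 3.3e-06), with both means of the pair under the floor. *RIMS2*, a presynaptic scaffold gene, had 1.38 CPM in RF and 0.60 CPM in SS, with differences of -1.75 (FDR 0.0013) and -2.87 (FDR 3.9e-06) from the 7 muscles. For *RIMS2* the RF to SS difference did not pass (log2FC 1.12, FDR 0.47). The study listed *RIMS2* and both unannotated loci for differences between semimembranosus and SS. Their differences from the 7 muscles are therefore not independent evidence.

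*CHI3L1*, a secreted chitinase-like glycoprotein (chr12:344371-366834), was the second named gene that was higher in RF. RF had 49.3, 7.16, 14.2 and 11.1 CPM and SS had 10.1, 2.18, 3.20 and 3.48 CPM. Animal 1 was high in both muscles, so that the groups overlapped, yet RF exceeded SS in 4 of 4 animals. The log2FC was 2.04 ± 0.17 with an FDR of 0.0014 in edgeR's quasi-likelihood test; the FDR was 0.011 without animal 2, 0.029 without animal 3, 0.018 without animal 4, and 0.086 without the animal term. In relation to the other 7 muscles *CHI3L1* was low in each of the pair, by -1.64 in RF (FDR 0.00026) and by -3.68 in SS (FDR 3.0e-10). The counted locus joins 2 Ensembl genes, which cannot be told apart here.

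Among the called loci without a symbol, the one with the smallest p-value lay at chr9:89664737-89675620 (ENSOARG00000013116). It had 81.7, 50.7, 70.0 and 94.4 CPM in RF and 207, 210, 342 and 238 CPM in SS. The log2FC was -1.72 ± 0.24, with an FDR of 1.8e-06 in edgeR's quasi-likelihood test. Here RF stood apart and SS did not: RF was at -1.88 from the mean of the other 7 muscles (FDR 1.2e-08) and SS at -0.16 (FDR 0.62). Semitendinosus was the other low muscle for this locus, with 93.0 ± 21.6 CPM (SD, n = 4), while the others had means of 291 to 385 CPM.

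A locus on chromosome 10 (chr10:35915236-35988302) had 6.13, 5.41, 8.85 and 6.92 CPM in RF and 12.4, 19.7, 22.6 and 18.8 CPM in SS, with a log2FC of -1.43 ± 0.17 and an FDR of 3.2e-05 in edgeR's quasi-likelihood test. At chr8:19396081-19553431 RF had 28.9, 47.1, 37.9 and 47.7 CPM and SS 95.1, 90.1, 107 and 92.4 CPM (log2FC -1.25 ± 0.19, FDR 0.00020). The locus at chr3:159530727-159691638 had 1.98, 2.78, 2.67 and 4.37 CPM in RF and 6.66, 14.9, 14.4 and 10.4 CPM in SS (log2FC -2.00 ± 0.27, FDR 0.00043). In each of the 3 the groups were separate, but the calls on chromosomes 8 and 3 were lost without 1 animal: the former without animal 1 (FDR 0.015) or animal 3 (FDR 0.029), the latter without animal 2 (FDR 0.033) or animal 3 (FDR 0.029). A second locus in the coordinates of the one on chromosome 8 had a log2FC of 0.47 and an FDR of 0.22.

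Of the 22 called loci, 3 had no Ensembl gene (13.6%), against 25.4% of the tested loci. All 3 were higher in SS. The one on chromosome 25 (chr25:43082374-43137216) had 2.18, 1.90, 1.34 and 0.91 CPM in RF and 9.64, 6.26, 4.44 and 6.38 CPM in SS, with a log2FC of -2.09 ± 0.21 and an FDR of 0.0010 in edgeR's quasi-likelihood test. Its tested neighbours in the same coordinates had log2FC values of -2.15 (FDR 0.019) and -0.79 (FDR 0.034), the latter for an annotated gene. On chromosome 16 (chr16:19769562-19905869) the levels were 0.59, 0.88, 1.67 and 1.82 CPM in RF and 2.53, 4.51, 9.24 and 5.996 CPM in SS (log2FC -2.14 ± 0.17, FDR 0.0025), beside a second unannotated locus with -2.80 (FDR 0.014). On chromosome 1 (chr1:230473614-230478546) RF had 0.40, 5.41, 5.85 and 4.37 CPM and SS 17.7, 13.1, 29.1 and 15.5 CPM (log2FC -2.15 ± 0.74, FDR 0.0037). The study had listed this position as higher in SS than in semitendinosus, from the same SS samples. These 3 loci were separate between the groups, and none was called without the animal term, where their FDR was 0.16, 0.12 and 0.033. Leaving out animal 3 ended all 3 calls (FDR 0.017, 0.13 and 0.15), as did leaving out animal 1 (FDR 0.012) or 4 (FDR 0.015) on chromosome 25, animal 2 (FDR 0.033) on chromosome 16 and animal 4 (FDR 0.019) on chromosome 1.

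Some coordinates held several called or nearly called loci. In the box at chr1:119604589-119670822, which held 6 tested loci, all 6 had a negative log2FC, from -1.47 to -0.59, and 2 had an FDR of 0.05 or less. The called one of them had 15.6, 13.2, 14.4 and 14.9 CPM in RF and 28.5, 30.3, 32.0 and 30.9 CPM in SS, with a log2FC of -1.09 ± 0.07 and an FDR of 0.0025 in edgeR's quasi-likelihood test. Its spread within each muscle was small, but its FDR was 0.031 without animal 2, 0.061 without animal 3, 0.044 without animal 4 and 0.22 without the animal term. The last called locus with a higher level in SS, at chr1:102635347-102639311, had 1.08 ± 0.67 CPM in RF and 4.22 ± 0.82 CPM in SS (SD, n = 4; log2FC -1.98, FDR 0.0025), and was not called with any animal left out (FDR 0.011 to 0.035) or without the animal term (FDR 0.056).

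Besides *HOXC10* and *CHI3L1*, 3 loci were higher in RF, all annotated and without a symbol. The most counted of these (chr7:18780797-18808574) had 381, 311, 201 and 193 CPM in RF and 141, 117, 121 and 127 CPM in SS, with a log2FC of 1.09 ± 0.22 and an FDR of 0.0066 in edgeR's quasi-likelihood test. At chr18:54987212-55132689 RF had 36.0, 27.8, 21.7 and 27.5 CPM and SS 15.6, 12.2, 11.4 and 15.1 CPM (log2FC 1.07 ± 0.09, FDR 0.0019). At chr1:41583944-41653126 RF had 10.5, 10.1, 7.35 and 14.4 CPM and SS 2.53, 5.39, 3.73 and 5.996 CPM (log2FC 1.28 ± 0.24, FDR 0.0061). RF lay above SS without overlap in all 3, yet each call was lost with any animal left out, with FDR values from 0.011 to 0.069, and without the animal term (FDR 0.052, 0.016 and 0.21). Of the 5 loci higher in RF, the call of *HOXC10* alone held in each fit with 1 animal left out.

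A wider list, at an FDR of 0.05 or less with any fold, held 95 loci (0.762%), of which 39 were higher in RF (0.313%) and 56 higher in SS (0.449%). Differences were smaller on the RF side, with a median log2FC of 0.94, than on the SS side, with a median of -1.40. Only 17 of the 39 passed 2-fold, against 41 of the 56. The members on the RF side were also well counted, at a median of 18.96 CPM, against 14.2 CPM on the SS side and 3.62 CPM over all tested loci. At an unadjusted p of 0.05, 1328 loci (10.7%) were reached.

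The most counted members of the wider list differed less than 2-fold when they were higher in RF. A locus at chr11:28880149-29169247 had 13230 ± 2074 CPM in RF and 7029 ± 2151 CPM in SS (SD, n = 4), with a log2FC of 0.90 and an FDR of 0.037 in edgeR's quasi-likelihood test. Another, at chr24:26211003-26227471, had 1423 ± 214 CPM in RF and 794 ± 101 CPM in SS (log2FC 0.85, FDR 0.032). The opposite direction was seen at chr7:21104083-21157369, with 1046 ± 437 CPM in RF and 2558 ± 595 CPM in SS (log2FC -1.30, FDR 0.039). Groups did not overlap at any of these 3, which were picked for their level after the values were seen. A locus at the *SLC16A3* position (a lactate and proton carrier; ENSOARG00000016912) had 12.1, 10.5, 6.85 and 6.38 CPM in RF and 4.36, 4.81, 4.44 and 3.09 CPM in SS, with a log2FC of 1.08 ± 0.17 and an FDR of 0.040.

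Of the 31 symbols paired with 1 tested locus, 7 were called (0.177% of all loci), 2 higher in RF (0.0401%) and 5 higher in SS (0.136%), and 24 were not. Signs were negative for 21 and positive for 10, with a median log2FC of -0.43, against 0.000923 over all loci. *HOXD8*, which served to choose the pair, is among the 31 and among the 10 positive signs. *PDLIM1* is among the 21 negative signs, but its pairing is doubtful. The study listed it as higher in SS than in semitendinosus, whereas the paired locus had 2.76 and 2.54 CPM there. All 31 symbols, and the named positions shared by several loci, were listed by the study in comparisons that used the same SS samples. Neither the counts nor the signs are therefore independent evidence. The same holds for differences of SS from the 7 muscles, which include muscles of those comparisons. The coiled-coil protein gene *TACC2* (76.1 ± 11.2 CPM in RF and 83.5 ± 14.1 CPM in SS; SD, n = 4) and the microtubule-associated kinase gene *MAST2* (29.0 ± 5.21 and 30.5 ± 4.62 CPM) overlapped between the muscles, with FDR values of 0.91 and 0.94 in edgeR's quasi-likelihood test. The position of *MYBPC1*, the slow-type myosin-binding protein C, carried a locus with 1380 CPM in RF and 1471 CPM in SS (log2FC -0.11, FDR 0.91; chr3:170450235-170553298). Unannotated loci in those coordinates had log2FC values of -0.74, -0.74 and -0.68, and none passed the test. *DLG2*, a synaptic scaffold gene, had 3.90 ± 0.97 CPM in RF and 7.11 ± 3.05 CPM in SS (log2FC -0.88, FDR 0.14), and *MYLK3*, a myosin light chain kinase, had 17.8 ± 8.76 and 27.8 ± 8.17 CPM (log2FC -0.66, FDR 0.29), with overlap in each. *MYH7*, *TBX4*, *TBX5*, *PITX1*, *HOXC8* and *HOXD9* carried no paired locus and were not analysed here.

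The 2 muscles were also set against the mean of the other 7, in the same fit. RF differed from that mean at 36 loci (0.289%), 16 higher (0.128%) and 20 lower (0.161%), and SS at 212 (1.70%), 146 higher (1.17%) and 66 lower (0.530%). Without animal 3 these counts were 18 and 84, without animal 2 they were 25 and 135, without animal 4 they were 19 and 174, and without the animal term 9 and 107. Since both use the same 7 muscles, they are given side by side only. SS was the only forelimb muscle sampled, so that a trait of SS and a trait of the forelimb cannot be told apart. SS had the highest mean of the 9 muscles at 13 of the 22 called loci and the lowest at 5, whereas RF was the lowest at 4 and the highest at none. At 20 of the 22, SS was farther from the 7 muscles than RF was, a description of loci that were chosen for the RF to SS difference.

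**Figure D4:**
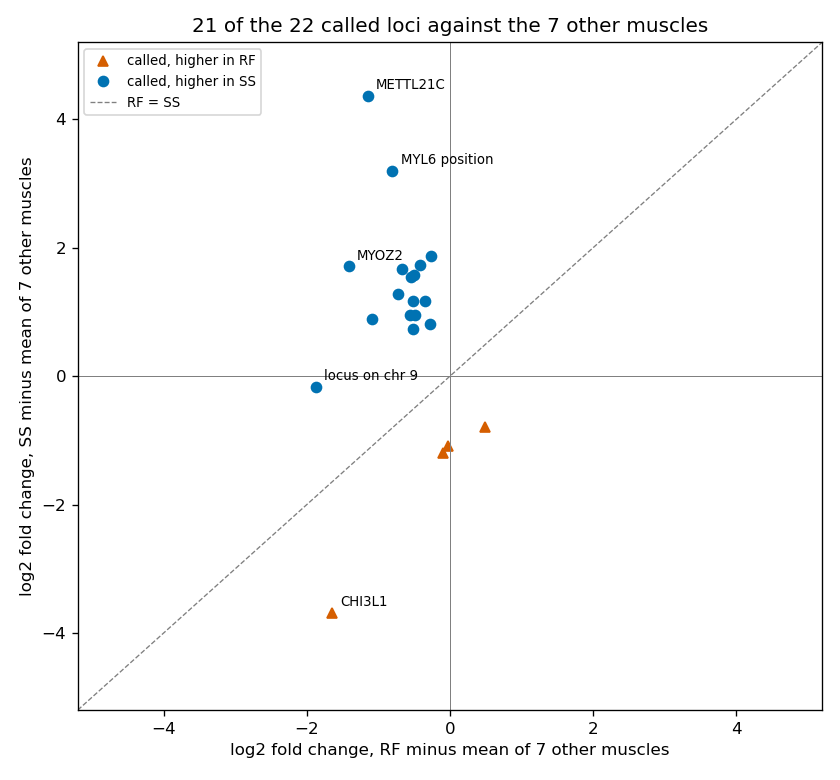
The log2 fold change against the mean of the 7 other muscles, for RF (horizontal) and SS (vertical), at 21 of the 22 called loci (*HOXC10*, with no read in SS, has no defined position and is left out). Circles are loci higher in SS and triangles loci higher in RF, and most circles lie well above 0 on the SS axis while staying between -1.2 and 0 on the RF axis, with *MYOZ2* and the locus on chromosome 9 farther to the left.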

How the data were processed

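RNA from 9 muscles of 4 lambs was sequenced on an Illumina HiSeq (paired ends). The authors mapped reads to Oar_v3.1 with TopHat2 2.0.13, assembled loci with Cufflinks 2.2.1 and deposited raw counts per locus from HTSeq; strand use and the lane of each library are not given in the sources used here. Each file had 31530 entries; 394 repeats were dropped, which left 31136 loci. Their start coordinates were taken as 0-based and raised by 1.

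Counts of all 36 samples were fitted in edgeR 4.0.16 (R 4.3.3) with muscle and animal, TMM scaling over the tested loci and filterByExpr, which kept 12461 loci. RF minus SS was a contrast of quasi-likelihood fits; loci were called at an FDR of 0.01 or less where the log2FC also exceeded 1 in size. The SE is that of 4 within-animal differences in log2 CPM with a prior count of 2. Tested on simulated counts for RF against SS over 12461 loci, 89 of 100 loci changed 3-fold and 100 of 100 changed 6-fold were called, with 0 of the unchanged ones. The changed loci were drawn only from those with a mean of at least 10 counts, and the simulated spread followed a smooth trend with level. These rates therefore do not cover sparser loci or loci that vary more than that trend. Samples with the same number are the same animal, and their deviations from the muscle means correlated at 0.237 to 0.361, against -0.275 to 0.096 for other pairs. Because deviations cancel out within a muscle, positive values for the same animal lower those of other pairs, and the gap is partly built in. Same-muscle libraries differed by more than sampling noise (chi-square per degree of freedom 5.73 to 15.0 over 12 pairs).

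Of the Ensembl identifiers, 0 matched the RefSeq table at hand, so that symbols come from positions listed in the study, and no sequence is shown. Text names every called locus with a symbol, those with the smallest p-values and fixed slow-fibre, calcium, position and growth genes. Lists of fast-fibre, oxidative, immediate early and cell type marker genes had 0 paired loci. Members and lists were chosen with earlier results of these data known. Alternatives are other tests (likelihood ratio, glmTreat, DESeq2 1.42.0), scalings, filters, thresholds, samples and no block. Intervals from counts cover counting error only.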

Additional observations from a re-analysis of the deposited data

Results flagged for a closer look

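There were 110 groups of 4 values (55 loci in RF and in SS), of which *HOXC10* in SS, with 0 reads throughout, could not be examined. In 8 groups the gap of a sample to its nearest neighbour exceeded Dixon's 95% limit for that share of the range. Chance alone gives about 1 in 20. Animal 1 gave 4 of the 8. Its *CHI3L1* level was 49.3 CPM in RF, with the others between 7.16 and 14.2, and 10.1 CPM in SS, with the others between 2.18 and 3.48. Its *PVALB* level was 17.5 CPM in SS, where the others lay between 1.24 and 2.18, and 58.1 CPM at the *MYH7B* position locus ENSOARG00000011188, where the other SS samples lay between 77.9 and 80.7.

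In animal 3, *TACC2* was 92.9 CPM in RF (others 69.4 to 71.6), *KCNMA1* was 14.0 CPM in RF (others 16.8 to 17.2), and ENSOARG00000017646 at the *MYL2* and *CCDC63* position was 206 CPM in SS (others 129 to 141). In animal 4, *HOXD8* was 1.55 CPM in SS, with the others between 0.23 and 0.36 and thus under the floor of 3 counts in a library. *HOXD8* served to choose the pair, and its SS reads numbered 1, 2, 2 and 8 in animals 1 to 4. Its flag, which is counted in the 8, is therefore given as a description only.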

How the results depend on the processing

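The count of 22 (5 higher in RF, 17 higher in SS) was 48 (12 and 36) with the likelihood ratio test, 5 (1 and 4) when tested against a 2-fold difference, 97 (18 and 79) with only the 8 RF and SS samples, 11 (1 and 10) without the replicate block, 35 (9 and 26) with DESeq2, 175 (49 and 126) without the filter on low counts, and 58 (17 and 41) at an FDR of 0.05. With at least 10 counts in every sample, 5151 loci were tested and 17 were called, 3 of them higher in RF. Only 12 of the 22 were tested under that filter, and all 12 were called. With an animal left out the count ranged from 7 to 20 (1 to 4 and 6 to 16). It was 23 with RLE scaling and 23 without the 4 most counted loci. For RF against the 7 muscles, 36 became 57 with the likelihood ratio test, 9 without the replicate block, and 18 to 29 with an animal left out; for SS, 212 became 107 without the replicate block and 84 to 261 with an animal left out.

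No called locus reversed in 272 values under the alternatives, 70 of which no longer met the call rule. Of 395 values for 32 uncalled loci, 31 met it. Sign changed only in *SIM2*, -0.320 without animal 1 and -0.0098 without animal 4 (0.442 without animal 3), and *EYA1*, 0.0063 without animal 1, 0.053 without animal 2 and 0.014 without animal 4 (-0.145 without animal 3). The cause was not tested. Depth outside the 4 most counted loci was low, and loci under the floor could not be compared.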
